A study of Mus musculus with 18 samples.

Results

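Intestinal epithelial cells, titled apart from the tumours of the same series, were compared between mice with and without the transcription factor Stat3 in the gut epithelium. The comparison used the 6 arrays titled as epithelial cells among the 18 arrays of a series on the role of Stat3 in intestinal tumours in the APCmin strain, whose mutant Apc allele activates WNT signalling. The control group held replicates 1 to 3 and came from mice with both Stat3 alleles floxed (Stat3fl/fl). The deleted group held replicates 4 to 6, is labelled Stat3-/-, and per the series text came from floxed mice that also expressed Cre recombinase from the Villin promoter, which is active in the epithelium of the intestine. Deletion from this promoter is limited to the epithelium, so lymphocytes or stromal cells in a preparation keep Stat3. The labels give no age, sex, treatment or Apc genotype for these 6 samples and do not say which gut segment they came from or how the cells were isolated. The free-text field of all 6 names a chemically induced colorectal tumour in APCmin mice, which goes against their titles and cell type labels. Each value is a log2 expression value for a probe set, the group of probes that reads a gene, so that a difference of 1 is a 2-fold change.

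STAT3 is a latent transcription factor of the cytoplasm. Cytokines of the IL-6 family act through the shared receptor chain gp130, and IL-22 and IL-10 act through receptors of another family. Their bound receptors activate JAK kinases, which phosphorylate STAT3, and the STAT3 dimer then enters the nucleus and binds DNA. In the gut epithelium, IL-22 from lymphocytes in the mucosa is known to act through STAT3 to induce secreted antimicrobial proteins, among them lectins of the REG3 family, and to aid repair of the epithelium.

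All 6 arrays carried the epithelial signature that their labels state. The 15 epithelial markers, among them Epcam, Cdh1, Vil1 and Krt20, had mean log2 values of 11.30 to 11.34 in the controls and of 11.07, 11.31 and 11.32 in replicates 4, 5 and 6. Gata4, a factor of the proximal small intestine, lay between 9.45 and 9.98, and Fabp6, the bile acid binding protein of the ileum, between 9.75 and 10.84. Hoxd13, a factor of the distal colon, lay between 5.40 and 5.80, below each array's median of 5.94 to 6.07. Car1, a member of the colon gene list, was 7.37 in control replicate 1 and from 5.0 to 5.7 in the other arrays. The 24 colon genes tested had array means of 6.66 to 7.12, the highest in control replicate 1. These genes do not settle which segment the cells came from.

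Replicates 3 and 4 stood apart from the other arrays. Replicate 4 had the lowest mean correlation with the others, 0.955 against up to 0.978, and lay alone at the far end of the first principal component, which held 49.6% of the variance. Replicate 3 lay alone on the second, which held 24.6%. T and NK cell markers had a mean of 7.70 in replicate 4 and of 6.04 to 6.75 in the other 5 arrays. Proliferation genes had a mean of 6.46 in replicate 3 and of 6.88 to 7.27 in the others. The results are therefore given with and without replicate 4, and without replicates 3 and 4 where that changes a call.

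Epithelial cells without Stat3 had much less RNA of a small set of genes, some of them defence genes. Of 18459 probe sets tested, 6 passed an adjusted p of 0.05 in limma, which is 0.0325%, and all 6 were lower in the deleted cells. Besides Stat3 itself these were the antimicrobial lectins Reg3b and Reg3g, the innate signalling adaptor Tifa, the tyrosine kinase Ptk6 and the retrieval receptor Kdelr3. Higher values passed for 0 probe sets, while 559 higher (3.03%) and 754 lower (4.08%) probe sets had an unadjusted p under 0.05. Without replicate 4 the count was 5, or 0.0271%, since Kdelr3 no longer passed. In these mixed preparations, fewer cells of a type and less RNA per cell cannot be told apart.

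Stat3 had log2 values of 9.83, 9.74 and 9.91 in the controls and of 7.93, 7.95 and 7.73 in replicates 4, 5 and 6. The 3 deleted arrays lay close together and well below the controls, and Stat3 fell by 1.96 ± 0.17 (SE), a 3.88-fold lower level (adjusted p 0.00103). Whether the probe set lies within the deleted exons is not known, so the remaining signal cannot be read as an amount of intact transcript.

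Reg3b, a secreted C-type lectin that acts on bacteria at the mucosal surface, was among the brightest probe sets of the controls at 13.11, 13.24 and 13.06. It was 8.39, 8.06 and 8.21 in the deleted cells, and the groups were separated with no overlap. Reg3b fell by 4.91 ± 0.17 (95% interval -5.29 to -4.53, 30.1-fold, adjusted p 2.12e-07), and its adjusted p without replicate 4 was 1.2e-06. Reg3g, a related lectin that binds peptidoglycan of Gram-positive bacteria, was 12.75, 12.89 and 12.78 in the controls and 8.26, 9.01 and 9.73 in the deleted cells. The controls were nearly equal, whereas the deleted arrays were spread, with replicate 4 the lowest. Reg3g fell by 3.80 ± 0.30 (95% interval -4.47 to -3.14, 14-fold, adjusted p 0.00044), and fell by 3.43 without replicate 4 (adjusted p 3.66e-04).

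Reg3a and Reg1, other secreted members of the REG family, were also lower but did not pass. Reg3a was 9.39, 9.42 and 8.88 in the controls and 7.03, 8.58 and 7.54 in the deleted cells, a difference of -1.51 (95% interval -2.25 to -0.77, adjusted p 0.574). The groups did not overlap, and without replicates 3 and 4 Reg3a passed (-1.35, adjusted p 0.0292). Reg1 was 11.76, 11.68 and 11.38 against 9.95, 11.28 and 10.80, a difference of -0.93 (95% interval -1.57 to -0.30). Reg4, the family member of enteroendocrine and secretory cells, differed by 0.23 (95% interval -0.20 to 0.66), with overlapping groups.

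The promoters of the 3 Reg3 genes are shown because these neighbouring genes on chromosome 6 had the differences above, and they were searched for TTCNNNGAA, the consensus of STAT dimers. The sequences are those of RefSeq for build GRCm38.p6 and run for 250 bases up to the annotated transcript start, 5′ to 3′ on the strand of the gene. Capitals mark TTCNNNGAA and the TATA box letters TATAAA, each searched on both strands.
Reg3b, chr6:78370635-78370884, plus strand: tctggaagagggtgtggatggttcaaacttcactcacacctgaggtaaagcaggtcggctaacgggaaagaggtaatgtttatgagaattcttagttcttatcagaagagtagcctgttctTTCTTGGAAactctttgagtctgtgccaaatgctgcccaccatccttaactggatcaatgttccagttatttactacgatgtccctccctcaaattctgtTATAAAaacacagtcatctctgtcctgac
Reg3g, chr6:78468875-78469124, minus strand: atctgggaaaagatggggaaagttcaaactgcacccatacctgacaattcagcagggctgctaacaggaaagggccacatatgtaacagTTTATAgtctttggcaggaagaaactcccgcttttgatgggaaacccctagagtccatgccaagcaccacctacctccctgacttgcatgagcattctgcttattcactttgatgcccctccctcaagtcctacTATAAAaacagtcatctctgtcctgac
Reg3a, chr6:78380459-78380708, plus strand: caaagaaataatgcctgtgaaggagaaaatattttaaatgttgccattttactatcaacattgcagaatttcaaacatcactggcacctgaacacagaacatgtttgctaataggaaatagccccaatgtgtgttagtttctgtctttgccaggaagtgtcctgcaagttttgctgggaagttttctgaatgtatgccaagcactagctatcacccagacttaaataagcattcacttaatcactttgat
Reg3b held TTCTTGGAA from base 122 and TATAAA from base 222 of this window. Reg3g held no TTCNNNGAA and held TATAAA near its transcript start. The Reg3a window held neither. The last bases of the Reg3a window match bases of Reg3g that lie upstream of that TATAAA. The Reg3a window therefore ends before the matching stretch, and whether Reg3a holds TATAAA there was not tested. Of all 32851 RefSeq promoters of this length, 7.02% held TTCNNNGAA and 12.4% held TATAAA, so a match is frequent and describes letters only. The windows of Reg3b and Reg3g were identical at 70% of 247 aligned bases, those of Reg3b and Reg3a at 69.9% of 196, and those of Reg3g and Reg3a at 71.9% of 199. Of the other genes that passed, the windows of Tifa, Kdelr3 and Stat3 held no TTCNNNGAA. No promoter sequence was available for Ptk6, so it was not searched.

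Tifa encodes an adaptor that passes the sensing of bacterial sugar metabolites to TRAF6 and NF-kappaB. Its values were 9.05, 8.90 and 8.83 in the controls and 6.78, 6.70 and 6.60 in the deleted cells. Both groups were tight. Tifa fell by 2.23 ± 0.17 (95% interval -2.60 to -1.86, 4.70-fold, adjusted p 3.64e-04), and fell by 2.27 without replicate 4. Ptk6, a cytoplasmic tyrosine kinase of differentiated epithelial cells, was 8.20, 8.13 and 7.93 against 6.59, 6.50 and 6.77. It fell by 1.47 ± 0.17 (2.77-fold, adjusted p 0.0109), and by 1.46 without replicate 4 (adjusted p 0.0436). Kdelr3, which returns proteins bearing a KDEL tail from the Golgi to the endoplasmic reticulum, was 7.53, 7.05 and 7.53 against 5.71, 5.75 and 6.07. It fell by 1.52 ± 0.19 (2.88-fold, adjusted p 0.0168), and without replicate 4 the difference was -1.46 and did not pass (adjusted p 0.115).

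When each of the 6 arrays was left out in turn, Stat3, Reg3b, Reg3g and Tifa passed in 6 of 6 fits. Ptk6 passed in 3 of 6, with adjusted p from 0.0196 to 0.0962, and Kdelr3 in 2 of 6, from 0.0169 to 0.163. Leaving out any of replicates 1 to 5 cost at least 1 of these calls, and leaving out replicate 3 or 6 added calls. Those of Bcl2l15 and Cfi, both lower, came without replicate 3. That of Klrd1, an NK cell receptor chain that was higher by 1.88, came without replicate 6. With the 12 tumour arrays added to the fit, which then share their spread, Reg3g (adjusted p 0.0627) and Ptk6 (0.525) did not pass.

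**Figure D1:**
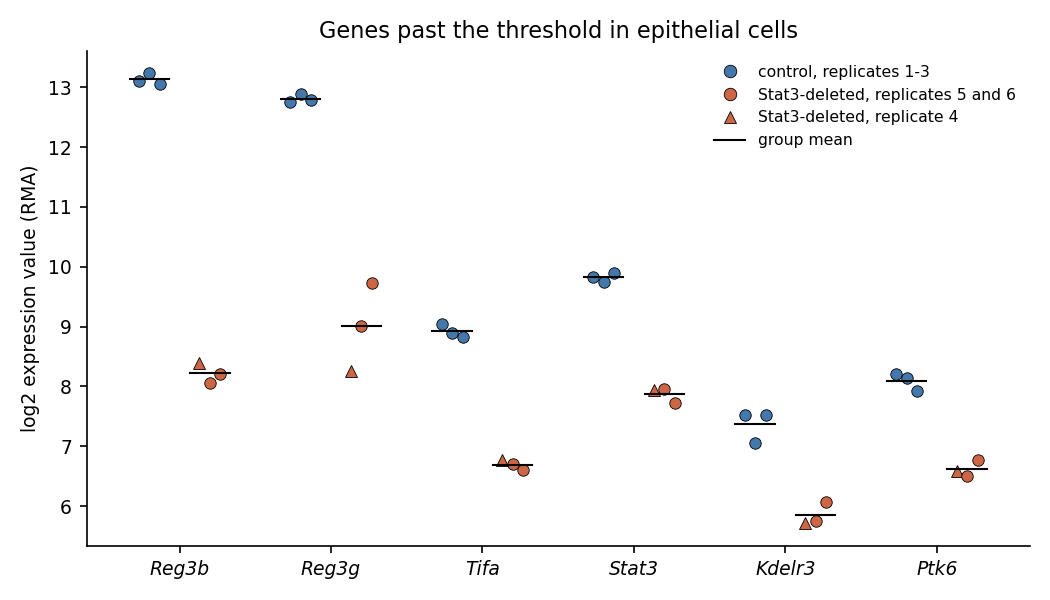
Log2 values of the 6 genes that passed, with 1 point per array and a line at each group mean; circles in blue are control replicates 1 to 3, and red symbols are Stat3-deleted replicates, with replicate 4 as a triangle. For every gene the 3 deleted arrays lie below the 3 controls, from 8.06 to 8.39 against 13.06 to 13.24 for Reg3b.

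Several further epithelial genes were lower without overlap between the groups, as were 7.78% of all probe sets tested, and did not pass. Il18, a cytokine that epithelial cells store as a precursor, was 8.80, 8.99 and 8.30 in the controls and 6.07, 7.35 and 7.22 in the deleted cells, a difference of -1.82 (95% interval -2.52 to -1.12, adjusted p 0.248) that was -1.41 without replicate 4. Cfi, the protease that inactivates complement C3b, was 7.20, 7.61 and 6.47 against 5.73, 5.66 and 5.45 (-1.48, adjusted p 0.215). Bcl2l15, a BCL2 family member of the gut, was 8.32, 8.30 and 6.94 against 5.77, 6.37 and 6.10 (-1.77, adjusted p 0.319). For Cfi and Bcl2l15 the control nearest to the deleted arrays was replicate 3.

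Of the cytochrome P450 epoxygenases, Cyp2j6 was 10.52, 10.41 and 10.49 against 8.01, 9.68 and 8.88 (-1.61, adjusted p 0.574). Cyp2j9 differed by -1.24 (adjusted p 0.289) and Gml, a GPI-anchored surface protein, by -0.94 (95% interval -1.27 to -0.61, adjusted p 0.156). Ceacam1, an adhesion molecule of the brush border, differed by -0.85. Pfkfb3, a regulator of glycolysis, and Acadl, an enzyme of mitochondrial fatty acid oxidation, each differed by -0.96. Without replicates 3 and 4, Il18, Cfi, Bcl2l15, Cyp2j6, Cyp2j9, Gml, Ceacam1 and Acadl passed (differences of -0.66 to -2.07), and the count of calls was 30, or 0.163%, with 24 lower and 6 higher.

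**Figure D2:**
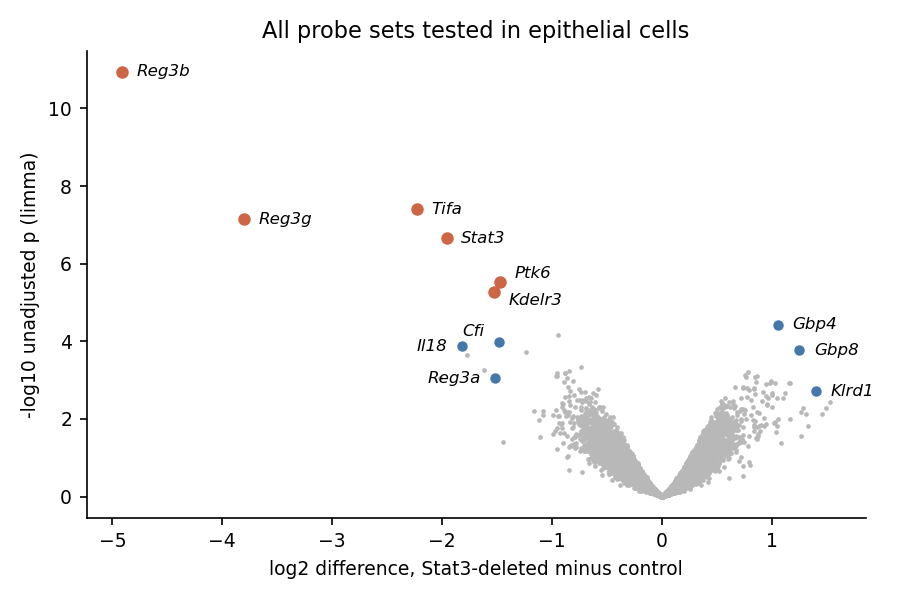
Each point is a probe set tested in the 6 epithelial arrays, with the log2 difference (Stat3-deleted minus control) on the x axis and -log10 of the unadjusted limma p on the y axis. The 6 probe sets that passed (red) lie on the left, led by Reg3b at -4.91, and named probe sets in blue, such as Gbp4 at 1.06, did not pass.

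The core of the STAT3 pathway had 1 member past the threshold. Of 44 genes of STAT3 feedback, receptors and reported targets, 43 were tested and 1 fell, Stat3 itself. Reg3b and Reg3g, which also fell, are not on this list and are counted with the antimicrobial genes below. The median difference of the list was -0.01, against 0.00 for all probe sets tested, with 20 members higher and 23 lower. Among receptors, Il6st, which encodes gp130, was 7.79, 7.41 and 7.73 against 6.94, 7.21 and 6.78, a difference of -0.67 (95% interval -1.07 to -0.26). Il10rb, the chain shared by the IL-10 and IL-22 receptors, differed by -0.38 (95% interval -0.80 to 0.05), Il22ra1 by 0.01 (-0.44 to 0.45, and -0.19 for its other probe set) and Osmr by -0.26 (-0.60 to 0.09). Of the kinases, Jak2 differed by -0.58, with replicate 5 level with the lowest control.

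Socs3, the feedback inhibitor that STAT3 induces, was 8.64, 8.36 and 8.86 against 8.40, 8.66 and 7.94. These values overlapped, and the interval of the difference of -0.29 ran from -0.78 to 0.21, so a fall of the size seen for Reg3b lies outside it. The other Socs3 probe set differed by -0.20. Socs1, a related inhibitor, differed by 0.53 (95% interval 0.07 to 0.99) and by 0.32 without replicate 4. The phosphatase Ptpn2, which dephosphorylates STAT proteins, differed by -0.48 (-0.06 for its other probe set) and the repressor Bcl6 by -0.48. Of reported targets in survival and growth, Pim1 differed by 0.21, Junb by 0.36, Mcl1 by -0.26, Bcl2l1 by 0.08, Bcl3 by -0.17 and Fos by 0.01. Myc differed by 0.68 and overlapped between the groups, with its lowest value, 5.69, in control replicate 3; without replicates 3 and 4 the difference was 0.27.

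No other tested STAT gene passed. Stat4, a STAT of lymphocytes, was 4.37, 4.47 and 4.80 in the controls and 5.67, 5.26 and 4.69 in the deleted cells (0.66, 95% interval 0.15 to 1.18). In control replicates 1 and 2 it lay below the arrays' 25th percentiles of 4.53 and 4.51. Its value was highest in replicate 4, where the T and NK cell markers were highest. The part of those markers in the result was not tested. Stat5b differed by 0.45 (95% interval 0.05 to 0.85), Stat5a by 0.14, Stat6 by -0.09 and Stat2 by -0.02.

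On the list of antimicrobial and acute-phase genes 3 passed, Reg3b, Reg3g and Tifa. Tifa encodes a signalling adaptor and is also counted on the NF-kappaB and innate sensing list. Of 41 genes listed, 39 had a probe set with a single gene symbol, 33 were tested and 3 fell. The list median was 0.04, or -0.06 without replicate 4, against 0.00 for all probe sets. Retnlb, a goblet cell protein that acts on bacteria, was 5.45, 5.38 and 4.88 against 4.98, 4.72 and 4.21 (-0.60, 95% interval -1.09 to -0.12). These values were dim, below the array medians of 5.94 to 6.07, and the groups overlapped. Saa3, an acute-phase lipid-binding protein, differed by -0.43 between dim values of 4.48 to 5.21. Both differences had an adjusted p of 0.67.

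Several genes that are known in other settings to respond to STAT3 were dim in these cells. Lrg1, a secreted acute-phase glycoprotein, lay between 5.33 and 5.69 in all 6 arrays, and Lcn2, which sequesters bacterial siderophores, between 5.03 and 5.45 (-0.10, 95% interval -0.44 to 0.25). Serpina3n, a serine protease inhibitor, differed by 0.08. All 3 lay below the array medians in every array. The hydrogen peroxide producing oxidase Duox2 and its maturation factor Duoxa2 were bright and varied within both groups. Duox2 was 11.26, 10.57 and 10.48 against 11.63, 11.54 and 9.87, a difference of 0.25 (95% interval -0.65 to 1.14).

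Genes of intestinal lymphocytes were higher in the deleted preparations, most of all in replicate 4, and none passed. Of 45 T and NK cell markers, 39 had a probe set and 34 were tested. All 34 were higher in the deleted group, 18 without overlap between the groups and 21 at an unadjusted p under 0.05. Of all probe sets tested, 6.28% were higher without overlap and 3.03% were higher at that unadjusted p. These counts include replicate 4. The median difference of the list was 0.81, and 0.49 without replicate 4. Array means of the list were 6.08, 6.04 and 6.40 in the controls and 7.70, 6.75 and 6.51 in replicates 4, 5 and 6, so that replicate 6 lay close to control replicate 3. These values cannot tell more lymphocytes from more RNA per lymphocyte.

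The chemokine Ccl5, made by cytotoxic lymphocytes, was 8.85, 8.53 and 9.91 against 11.57, 10.37 and 9.95 (1.53, adjusted p 0.67). Itgae, the integrin chain that holds lymphocytes in the epithelium, was 6.82, 6.51 and 7.25 against 9.12, 7.94 and 7.38 (1.29, and 0.80 without replicate 4). Gzmb, a cytotoxic granule protease, was 7.54, 7.67 and 8.30 against 10.56, 8.81 and 8.50 (1.45, and 0.82 without replicate 4). In each case replicate 4 was highest and replicate 6 lay just above control replicate 3. The T cell receptor component Cd3e differed by 1.06, and by 0.59 without replicate 4. Without replicates 3 and 4, Ccl5, Gzmb, Gzma and Cd3g passed, with differences of 1.03 to 1.47.

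Markers of other cells had smaller median differences. B and plasma cell markers had a median of 0.22 (0.13 without replicate 4), with 14 of 17 higher. Mast cell markers had a median of 0.22 (0.04 without replicate 4), and the mast cell protease Mcpt1 was 5.54, 6.76 and 7.31 against 8.89, 7.28 and 5.64, with the groups overlapping. Medians were -0.04 for macrophages and dendritic cells, 0.05 for neutrophils, 0.01 for fibroblasts, 0.13 for smooth muscle, -0.01 for endothelium and 0.01 for glia and neurons. Without replicate 4 they were -0.06, -0.03, -0.06, 0.02, -0.07 and 0.00. In each of these lists 0 members passed.

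**Figure D3:**
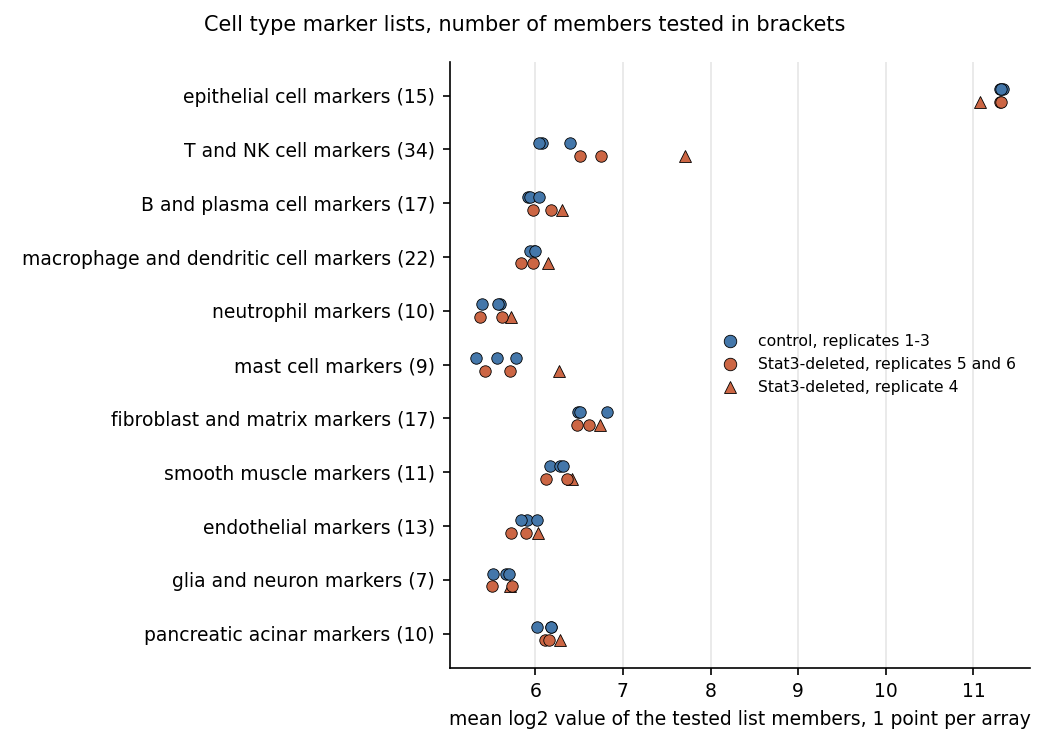
Mean log2 value of the tested members of each cell type marker list, with 1 point per array; blue circles are controls, red circles are Stat3-deleted replicates 5 and 6, and the triangle is replicate 4. Replicate 4 lies to the right for T and NK cell markers, at 7.70, and to the left for epithelial markers, at 11.07.

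Genes of antigen presentation and of the interferon response were higher in places. Of 27 genes of MHC class II and antigen presentation tested, 20 were higher, 10 of them without overlap (6.28% of all probe sets were higher without overlap), and 0 passed. The median was 0.16, and 0.11 without replicate 4. The class II chain H2-Eb1 was 10.62, 10.58 and 10.38 against 11.23, 11.12 and 11.01 (0.60, 95% interval 0.23 to 0.97), and every deleted array exceeded every control. The same held for the peptide loading chain H2-DMa (0.59), the immunoproteasome subunit Psmb9 (0.58), the class II transactivator Ciita (0.45) and the peptide transporter Tap1 (0.44). Their differences without replicate 4 were between 0.42 and 0.54.

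The guanylate binding proteins Gbp4 and Gbp8, GTPases induced by interferon that act against intracellular microbes, were the higher genes with the smallest p. Gbp8 was 6.47, 5.83 and 6.39 against 7.72, 7.09 and 7.64, a difference of 1.25 (95% interval 0.76 to 1.75, adjusted p 0.284), and of 1.14 without replicate 4. Without replicates 3 and 4 Gbp8 passed (1.22, adjusted p 0.0396). Gbp4 was 4.20, 4.54 and 4.17 against 5.46, 5.38 and 5.24 (1.06, adjusted p 0.099), with the controls near the arrays' 25th percentile of 4.51 to 4.57. The groups did not overlap for either gene. The 46 interferon response genes as a list had a median of -0.02, with 20 higher and 26 lower, and 0.11 without replicate 4. The other higher genes with the smallest p included the T cell gene Themis (0.79), the bile acid regulated nuclear receptor Nr0b2 (0.75), the gut peptide Guca2a (0.85), the interferon gene Ifi203 (0.86) and the leukocyte protease inhibitor Cst7 (1.17), with adjusted p of 0.574 to 0.602.

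Functional genes of absorptive cells were lower by small amounts, most of all in replicate 4. Of 38 absorptive enterocyte genes tested, 36 were lower and 2 higher, and 0 passed. The median was -0.22, and -0.12 without replicate 4. It was -0.15 without replicate 3 and -0.05 without replicates 3 and 4. Array means were 11.55, 11.50 and 11.73 in the controls and 11.14, 11.50 and 11.43 in replicates 4, 5 and 6, so that replicate 5 equalled control replicate 2 to the printed precision. The brush border peptidase Dpp4 differed by -0.57, and by -0.38 without replicate 4, and the meprin subunit Mep1a by -0.59.

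Of 62 xenobiotic metabolism genes, 51 were lower and 11 higher, 0 passed, and the median of -0.28 was -0.12 without replicate 4. Cyp2b10, a cytochrome P450 induced by xenobiotics, was 11.56, 11.74 and 11.92 against 11.20, 11.13 and 10.92 (-0.66, 95% interval -1.04 to -0.28), and differed by -0.72 without replicate 4. The carboxylesterase Ces2a differed by -0.70, and by -0.76 without replicate 4. Without replicates 3 and 4 Ces2a passed (-0.82, adjusted p 0.0131). Cyp2c55, another cytochrome P450, differed by -0.90 and by -0.66 without replicate 4.

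Fatty acid oxidation genes had a median of -0.23 and of -0.07 without replicate 4. Genes of the unfolded protein response and the endoplasmic reticulum had a median of -0.20 and of -0.09 without replicate 4, and Kdelr3 was the only 1 of 41 that passed. The stress sensor Atf6 differed by -0.61, and by -0.42 without replicate 4. Cell adhesion and junction genes had a median of -0.18, and -0.10 without replicate 4, and 0 of 48 passed. The epithelial marker list itself had a median of -0.14, and -0.03 without replicate 4. The higher lymphocyte and lower epithelial values of that array move with these lists, and their part in the result was not tested.

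**Figure D4:**
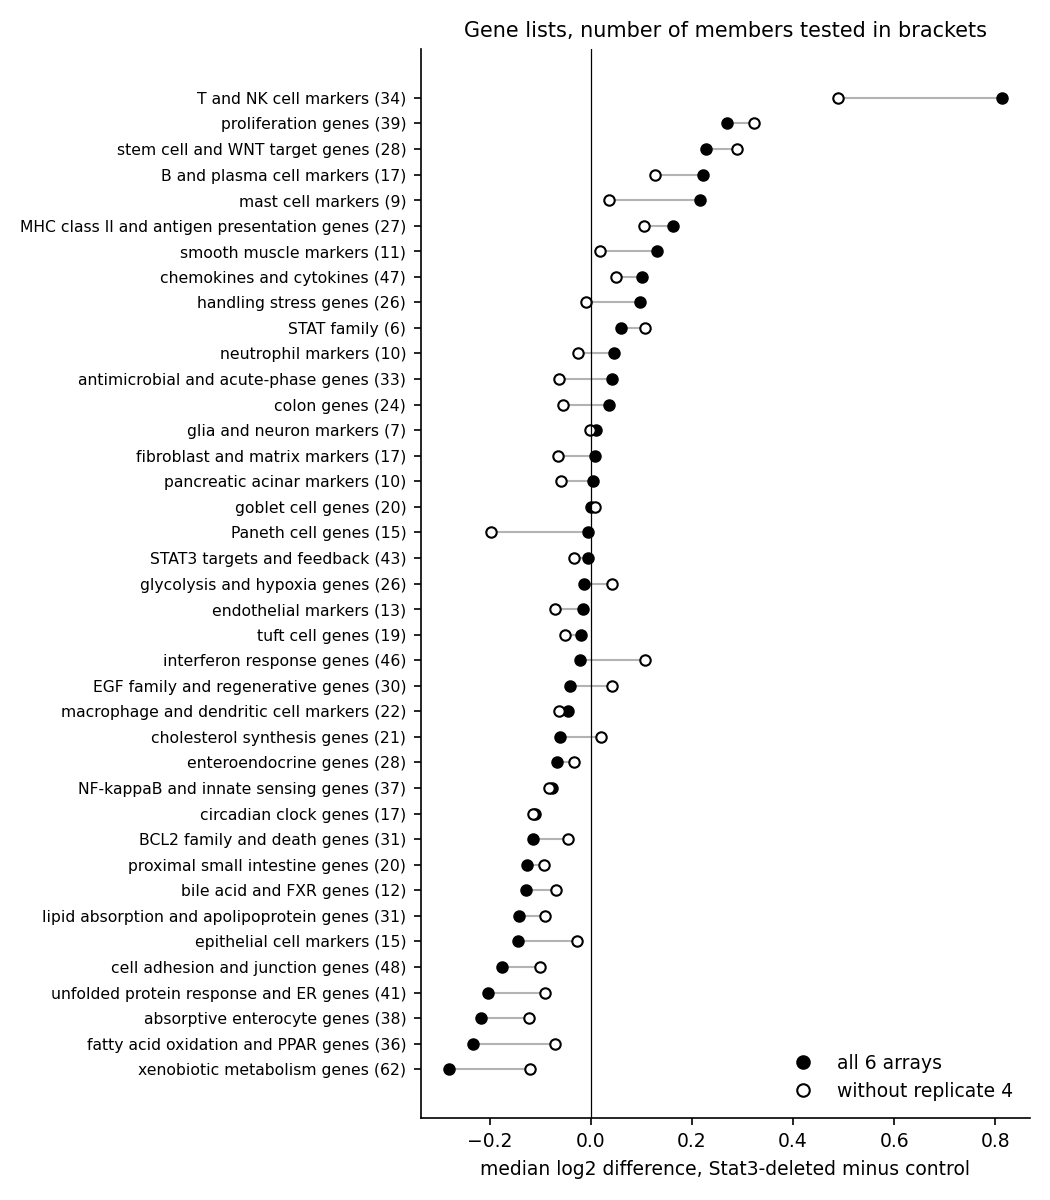
Median log2 difference (Stat3-deleted minus control) over the tested members of each gene list with at least 5 tested members, from all 6 arrays (filled) and without replicate 4 (open), with the number tested in brackets. The T and NK cell list lies at 0.81 and 0.49, and the xenobiotic list at -0.28 and -0.12.

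Genes of cell division and stem cells were higher on average, and this rested on control replicate 3. Of 39 proliferation genes 34 were higher, 0 passed, and the median of 0.27 was 0.32 without replicate 4 but 0.02 without replicate 3. Of 28 stem cell and WNT target genes 22 were higher, and the median of 0.23 was 0.07 without replicate 3. Olfm4, a marker of crypt base cells, was 10.26, 10.47 and 8.66 in the controls and 10.07, 10.22 and 10.67 in the deleted cells, and Mki67, a marker of dividing cells, was 7.94, 8.16 and 6.61 against 7.16, 7.77 and 7.91. In both, replicate 3 was the lowest array. Among the other arrays the groups overlapped for Olfm4, whereas the Mki67 controls, 7.94 and 8.16, lay above every deleted array. Mex3a, an RNA-binding protein of slow-cycling crypt cells, was 5.47, 5.65 and 5.44 against 6.80, 5.99 and 6.28 (0.84, 95% interval 0.39 to 1.28) and did not overlap. The stem cell factor Ascl2 differed by 0.43 without overlap, and Lgr5 by 0.14 with overlap.

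Lists of secretory cell types had medians near 0. They were 0.00 for 20 goblet cell genes, -0.02 for 19 tuft cell genes and -0.07 for 28 enteroendocrine genes, and 0 members passed. Without replicate 4 they were 0.01, -0.05 and -0.03, and without replicate 3 they were -0.08, 0.14 and -0.08. The goblet cell mucin Muc2 lay between 12.31 and 12.60 in all 6 arrays and differed by 0.05 (95% interval -0.28 to 0.38). Dclk1 of tuft cells and Chga of enteroendocrine cells each differed by -0.18. Of 28 Paneth cell genes listed, only 15 had a probe set with a single gene symbol, and these 15 were tested. Their median was -0.01, which was -0.20 without replicate 4 and -0.24 without replicate 3. It does not cover the rest of the list. Lyz1, the lysozyme of Paneth cells, was 12.28, 12.39 and 11.19 against 12.10, 11.56 and 11.31 (-0.30, 95% interval -0.97 to 0.38). Without replicates 3 and 4 it passed (-0.90, adjusted p 0.00135), as did Mmp7 (-1.01), the protease that activates Paneth cell defensins, and the related lysozyme Lyz2 (-1.27).

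Among cytokine genes, Il33 and Il15 were lower and Mif higher in the deleted group. Il33, an alarmin of epithelial and stromal cells, was 8.61, 7.51 and 8.18 against 6.65, 7.54 and 7.28 (-0.94, 95% interval -1.59 to -0.29), with replicate 5 above control replicate 2. Il15, which sustains lymphocytes in the epithelium, was 8.15, 8.37 and 8.88 against 7.35, 7.90 and 8.06 (-0.70, and -0.49 without replicate 4). Mif, a cytokine of many cell types, was 8.56, 8.40 and 7.89 against 8.90, 8.62 and 9.22 (0.63). Of the 47 chemokine and cytokine genes tested, 34 were higher and 13 lower, and 0 passed. The 37 NF-kappaB and innate sensing genes had a median of -0.08 and 1 that fell, Tifa. The remaining lists had 0 members that passed. Handling stress genes had a median of 0.10 (-0.01 without replicate 4 and 0.19 without replicate 3), and colon genes of 0.04 (-0.05 and 0.00). Proximal small intestine genes had a median of -0.13 (-0.09 and -0.20), bile acid genes of -0.13 (-0.07 and -0.08) and lipid absorption genes of -0.14 (-0.09 and -0.05). Cholesterol synthesis genes had a median of -0.06 (0.02 and -0.15), and glycolysis and hypoxia genes of -0.01 (0.04 and 0.00). BCL2 family and death genes had a median of -0.11 (-0.04 and 0.02), EGF family genes of -0.04 (0.04 and 0.04) and circadian clock genes of -0.11 (-0.11 and -0.02).

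The genes that fell in epithelial cells were also compared with the tumours of the same series, in a fit to all 18 arrays with 18883 probe sets. In the mean of male and female tumours, 5 of the 6 genes were lower and passed, where 0.355% of all probe sets did. The share of all probe sets that passed as lower was 0.106% in male and 0.0741% in female tumours alone. Reg3b differed by -5.59 in male and -6.09 in female tumours, Reg3g by -3.69 and -4.63, Tifa by -1.68 and -1.85, and Ptk6 by -1.31 and -1.50, where Ptk6 did not pass in either sex alone (adjusted p 0.244 and 0.247). Kdelr3 differed by -0.26 and -0.22, and the mean of -0.24 ± 0.17 (SE) did not pass (adjusted p 0.647). Its control means were 7.37 in epithelial cells, 7.02 in male and 7.31 in female tumours, whereas the deleted means were 5.84, 6.76 and 7.09. The test of the difference between tumours and epithelial cells gave 1.28 ± 0.29 for Kdelr3 and did not pass (adjusted p 0.348), so the smaller effect in tumours is not established. For the other 5 genes this difference had an adjusted p of at least 0.53, and 0.0106% of all probe sets passed this test.

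**Figure D5:**
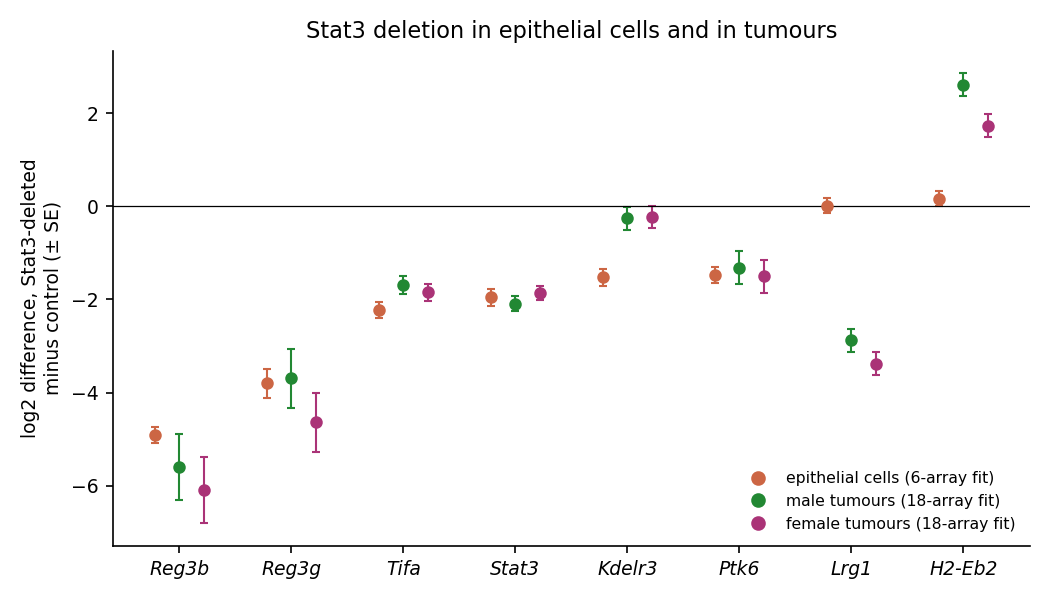
Log2 difference (Stat3-deleted minus control) with its standard error in epithelial cells (6-array fit), male tumours and female tumours (18-array fit) for the 6 genes that passed in epithelial cells and for Lrg1 and H2-Eb2. Kdelr3 lies at -1.52 in epithelial cells and at -0.26 and -0.22 in tumours, while Lrg1 lies at 0.02 in epithelial cells and well below 0 in both tumour groups.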

How the data were processed

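The data are log2 values of 35556 probe sets, as deposited, from single-colour Affymetrix whole-transcript arrays. Per the submitters' processing notes the authors made them with RMA (background correction, quantile normalisation between arrays, summary of probes). The sources used here do not give its version, or whether the 18 arrays were run together. Quantile normalisation makes arrays alike in distribution, and their small number limits the precision. Detection calls were not used. The platform annotation gave 21789 probe sets a single gene symbol (1621 had several and 12146 were not listed), and 21698 of these matched a current RefSeq gene record.

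Probe sets above their array's 25th percentile in at least 3 of the 6 epithelial arrays were tested, 18459 for 16978 genes, with limma 3.58.1 in R 4.3.3 (intensity trend, two-sided, Benjamini-Hochberg threshold 0.05). Tumour arrays entered only the side-by-side fit. Differences are deleted minus control, intervals are 95%, and n is 3 per group. The labels do not say that samples came from separate animals, so p-values measure only how these samples vary, and part of that may be technical. An exact permutation of 3 against 3 arrays cannot go below p 0.1.

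The compared groups and the 41 gene lists were chosen with earlier results of these data known. Genes named were Stat3, genes that passed, the 10 with the smallest p in a direction where fewer than 5 passed, list members that passed and up to 5 others of a list with the smallest p, any member of the STAT3, STAT and antimicrobial lists, and defining cell markers. Bcl2l15, Cfi, Cyp2j9, Gml, Lyz1, Muc2, Dclk1, Chga, Mki67, Lgr5, Olfm4, Nlrc5, Mt2, Scoc, H2-Eb2, Gata4, Fabp6, Hoxd13, Car1 and the genes listed for the fit without replicates 3 and 4 were chosen after their values were seen. A gene with several probe sets is given by the brightest. Alternatives were quantile normalisation, median centring, other filters, 1 probe set per gene, no trend, array weights, all 18 arrays and leaving arrays out. Promoters were aligned with biopython 1.88. The fits were tested on simulated data.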

Additional observations from a re-analysis of the deposited data

Results flagged for a closer look

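The effect of Stat3 deletion differed between tumours and epithelial cells, by a test of the difference in limma, for 2 of 18883 probe sets (0.0106%). Lrg1, an acute-phase glycoprotein, differed by -3.13 in the mean of the tumours and by 0.02 in epithelial cells, and the difference of these effects was -3.14 ± 0.31 (SE, adjusted p 3.18e-04). Its values were 5.33 to 5.69 in the 6 epithelial arrays, 8.72 to 9.79 in the 6 control tumours and 5.80 to 6.64 in the 6 deleted tumours, so that epithelial cells were dim for it with or without Stat3. H2-Eb2, a class II antigen presentation gene, differed by 2.17 in tumours and by 0.16 in epithelial cells, and the difference of these effects was 2.01 ± 0.30 (SE, adjusted p 0.0443). Its epithelial values were 5.42 to 5.92.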

How the results depend on the processing

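The 6 genes that passed did so under quantile normalisation, median centring, no filter, a filter at the array median, 1 probe set per gene and no intensity trend. With all 18 arrays in the fit 4 passed, and Reg3g (adjusted p 0.0627) and Ptk6 (0.525) did not. Array weights gave 1875 calls, 944 higher and 931 lower, with a weight of 6.58 for replicate 6 and of 0.27 to 2.29 for the others, so these calls rest largely on replicate 6. Leaving out 1 array at a time gave 4 to 7 calls, of which 0 to 1 were higher and 4 to 7 lower. Leaving out replicates 3 and 4 together, an alternative chosen after seeing the data, gave 30 calls, 6 higher and 24 lower. The count of the 6 genes that passed in tumours was 5, and 4 with the 12 tumour arrays alone. Over the 26 genes followed, 348 values stayed on the same side of the threshold, 30 passed newly, 9 no longer passed and 0 changed sign, and of the list medians 558 moved by less than their spread and 57 by more. No paired analysis was possible because the replicate numbers 1 to 18 are unique over the series. With 3 arrays a group the median SE of a single probe set was 0.18, and no value gives a level below which a gene counts as absent.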

Other observations

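Nlrc5, the transactivator of MHC class I genes, is read by 19 probe sets with that symbol alone. All 19 were higher in the deleted cells, 11 without overlap between the groups and 12 at an unadjusted p under 0.05, and 0 passed. Of all probe sets tested, 6.28% were higher without overlap and 3.03% were higher at that unadjusted p. Their median difference was 0.55, and 0.56 without replicate 4, with a range from 0.07 for the brightest to 0.82. These probe sets read a single gene on the same 6 arrays and are not independent of each other.

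Mt2, a metal-binding metallothionein, was 8.17, 7.57 and 7.65 in the controls and 8.39, 8.98 and 10.51 in the deleted cells (1.50, 95% interval 0.55 to 2.45), with its highest value in replicate 6, and it passed without replicates 3 and 4 (1.87, adjusted p 0.0292). In that fit Cyp1a1, a cytochrome P450 induced through the aryl hydrocarbon receptor, differed by -1.68 (adjusted p 0.00135), the retinal dehydrogenase Aldh1a1 by -0.74, and the glycosyltransferase B3galt5 by -1.01. Scoc, a Golgi protein, is read by a pair of probe sets that differed by -0.95 and -2.02 over all 6 arrays. Without replicates 3 and 4 the brighter of the pair did not pass (-0.81, adjusted p 0.0898). The other passed (-1.62, adjusted p 1.67e-04).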
